A study of Homo sapiens with 15 samples.

Results

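The 36 genes described here encode the machinery of macroautophagy, and they were taken by name and not by a cut on their values. The list was chosen with earlier results of these data known. All 36 had at least 1 probe set that carries a single gene symbol, among 19775 genes with such a probe set on the array. Each gene was read through its brightest probe set, the one with the highest mean over the 15 arrays. Of the 36 genes, 35 reached the median brightness of all probe sets (log2 6.60) in at least 1 extract and were tested, beside 14369 genes in all. ATG10 was too dim, with values between 6.28 and 6.63, and was not tested.

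Messenger RNA was measured in SKOV3ip1 cells, a human line of epithelial ovarian cancer that carries folate receptor alpha, on Affymetrix U133 Plus 2.0 arrays. The no-folate cells were kept in medium without folate for 7 days. The cells of the other 4 groups had folic acid at a level called physiological in the labels (2 to 10 nM, written nm there) over the same 7 days, and sample titles name the folate source by another abbreviation. In 3 of these an antibody was added for 24 hours: MORAb003, 003, or 004, which the labels call the control antibody. The remaining folate cells had none. MORAb-003 is an antibody directed at folate receptor alpha. Whether 003 is that antibody under another name is not stated in the labels. Each group was 1 culture and 1 RNA extract, of which 3 aliquots were hybridised. Every p-value between extracts below therefore measures only the spread between aliquots of 1 extract and says nothing about the spread between cultures. The arrays read messenger RNA and not autophagic flux.

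In macroautophagy, a membrane cup grows around cytoplasm, closes into an autophagosome and fuses with a lysosome. A kinase complex built on ULK1 or ULK2 and the scaffold RB1CC1 starts it, and a lipid kinase complex (PIK3C3, PIK3R4, BECN1 with UVRAG or other partners) marks the site with a phosphoinositide that WIPI proteins bind. ATG2 proteins feed lipid into the cup, and 2 ubiquitin-like conjugation reactions (ATG7, ATG3, ATG10, ATG12, ATG5, ATG16L1) attach LC3 and GABARAP proteins to it, where cargo receptors such as SQSTM1 and NBR1 dock. When nutrients are short, the kinase mTORC1 is held back and ULK1 and the transcription factor TFEB are released from its control. Much of this regulation acts on proteins and is not seen in messenger RNA.

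Replicate 1 of the 004 extract stood apart, with a correlation to the other 004 arrays of at most 0.950, against at least 0.993 within the other 4 extracts. It lay below both other 004 arrays for 33 of the 35 tested autophagy genes, against 68.1% of all tested genes, and its median distance from them was -0.81 for the autophagy genes and -0.45 for all genes. The control probe sets for actin, read near the 3′ and the 5′ end of the transcript, differed by 2.42 ± 0.13 with MORAb003, 4.02 ± 0.10 with 003, 4.09 ± 0.16 without folate, 3.46 ± 0.31 with 004 and 3.24 ± 0.13 for folate alone (log2, SD, n = 3 arrays each). A larger gap goes with more degraded RNA or shorter labelled products, and the part it plays in the differences below was not tested. All 13 epithelial ovarian cancer markers reached the brightness filter, with array means of 10.7 to 11.3, while 7 of 10 fibroblast and endothelial markers did, with array means of 6.82 to 7.11, and 2 of 6 leukocyte markers, with array means of 6.28 to 6.60. These are averages over each list, and single genes crossed. COL1A1 had extract means of 8.77 to 9.35 and PECAM1 of 8.46 to 8.83, above the epithelial marker CLDN4 at 7.17 to 7.79.

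The autophagy genes with the clearest differences were higher in the MORAb003 extract, and with all 15 arrays none of the 35 was called lower in any comparison. Of all tested genes, 0% to 7.79% were called lower, depending on the comparison, so few lower calls would be looked for among 35. A gene was called at an adjusted p under 0.05 (limma, Benjamini-Hochberg over all 14369 genes) if the extracts also differed at least 1.5-fold. Calls, and statements that a gene was not called, are for all 15 arrays unless another setting is named. Against the folate extract, 3 of 35 were called in the MORAb003 extract, where 6.58% of all tested genes were called, 4.77% higher and 1.81% lower. Against the 004 extract, 5 of 35 were called, with 19.9% of all tested genes, of which 17.6% were higher and 2.32% lower. Against the 003 extract, 9 of 35 were called, with 25.4% of all tested genes, of which 17.6% were higher and 7.79% lower. The members' shares were 8.57%, 14.3% and 25.7% in these 3 comparisons, close to or below those of all genes, so the counts alone do not set autophagy genes apart. The 3 comparisons share the MORAb003 arrays, and those with the folate and 004 extracts share controls with others below.

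**Figure D1:**
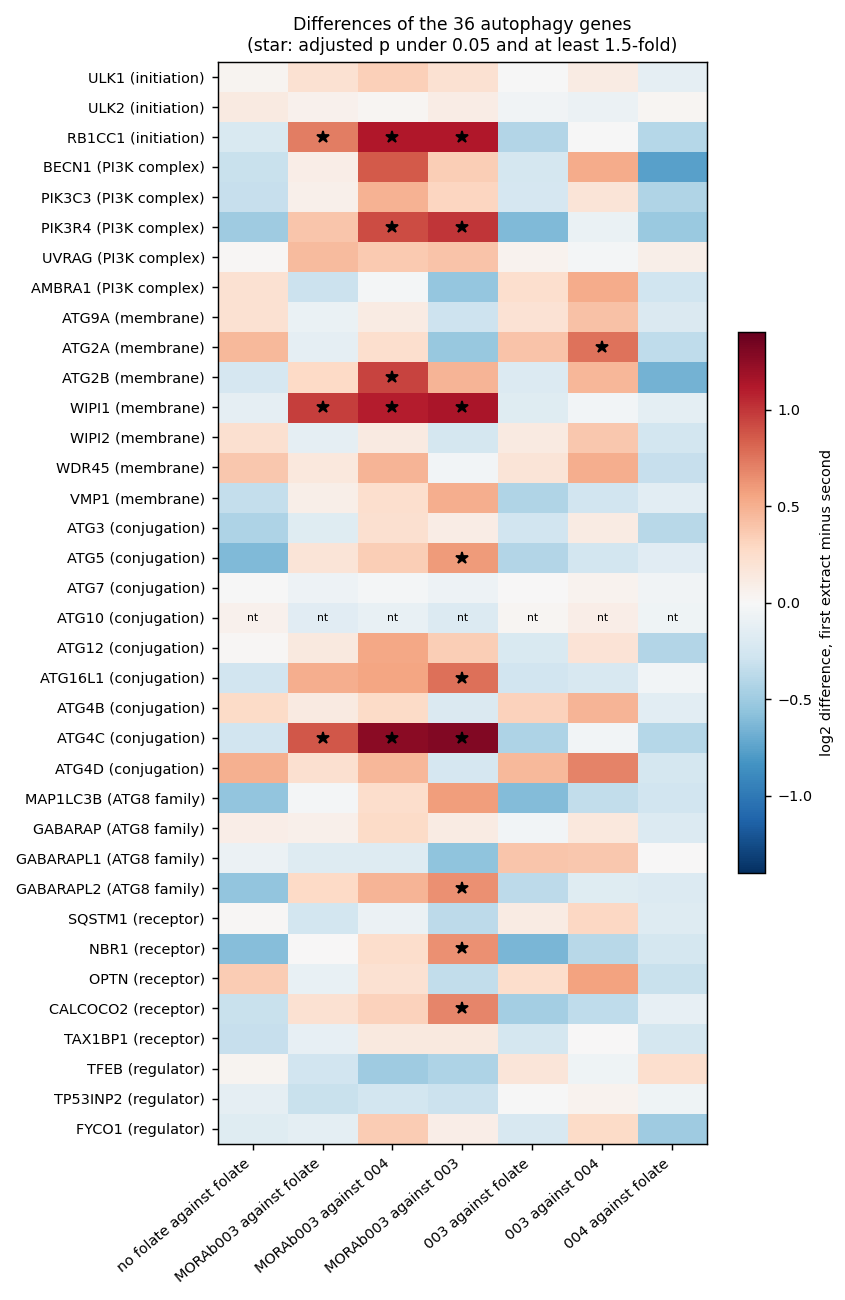
Log2 differences of the 36 autophagy genes (rows, with their role) in the 7 comparisons between extracts (columns, first extract minus second); red is higher and blue lower in the first extract, a star marks a call and nt marks ATG10, which was not tested. Stars stand mostly in the 3 MORAb003 columns, in the rows of RB1CC1, WIPI1 and ATG4C in all 3 of them.

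**Figure D2:**
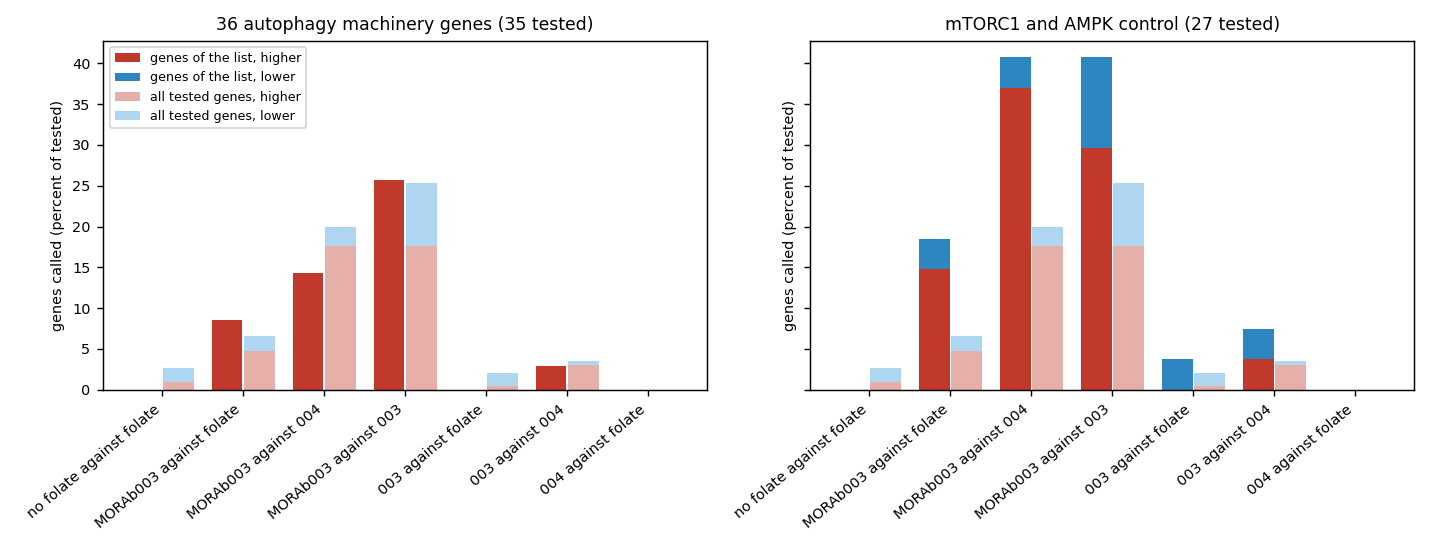
Percent of tested genes called higher (red) or lower (blue) in each comparison, for the autophagy genes (left) and for 27 genes of mTORC1 and AMPK control (right), beside all tested genes in pale colours. The autophagy bars lie near the pale bars, with 25.7% against 25.4% between the MORAb003 and 003 extracts, and the control-gene bars reach 40.7% against 19.9% between the MORAb003 and 004 extracts.

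In 7 of the 35 genes, namely RB1CC1, PIK3R4, UVRAG, WIPI1, ATG16L1, ATG4C and GABARAPL2, all 3 MORAb003 arrays lay above each of the 12 other arrays. That is 20.0% of the members, and 20.4% of all tested genes had the same pattern. TFEB was the 1 member whose MORAb003 arrays all lay below the 12 others, where 10.2% of all tested genes did. Among the other 4 extracts, 1 member, WDR45 in the no-folate extract, stood above all other arrays (3.76% of all tested genes for that extract), and none stood below.

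RB1CC1, also called FIP200, is the scaffold of the ULK kinase complex. Its log2 level was 7.84, 7.97 and 7.79 on the MORAb003 arrays, 6.98, 6.38 and 6.86 on the 003 arrays, 6.82, 6.81 and 7.20 on the no-folate arrays, 6.53, 6.76 and 6.95 on the 004 arrays and 7.13, 7.30 and 7.02 on the folate arrays. The MORAb003 arrays did not overlap any other group, whose 12 arrays lay between 6.38 and 7.30. RB1CC1 was higher in the MORAb003 extract by 0.71 (SE 0.16, adjusted p = 0.0148) than in the folate extract, by 1.12 (adjusted p = 0.000504) than in the 004 extract and by 1.12 (adjusted p = 0.000174) than in the 003 extract. The call against the folate extract ended when replicate 3 of the folate extract (0.65, adjusted p = 0.0724), replicate 1 of the MORAb003 extract (0.72, adjusted p = 0.0532) or replicate 2 of the MORAb003 extract (0.66, adjusted p = 0.0708) was left out. Arrays carry 2 dates, the first for replicates 1 and 2 of every extract and the second for replicate 3, and the difference from folate was 0.69 within the first date and 0.76 within the second. The kinases that RB1CC1 binds varied little: ULK1 had extract means of 7.48 to 7.81 and ULK2 of 7.49 to 7.66, and neither was called anywhere.

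WIPI1 binds the phosphoinositide of the nascent autophagosome. It read 7.71, 7.62 and 7.16 on the MORAb003 arrays, 6.23, 6.53 and 6.29 on the 003 arrays, 6.53, 6.16 and 6.53 on the no-folate arrays, 6.07, 6.49 and 6.63 on the 004 arrays and 6.65, 6.40 and 6.53 on the folate arrays. All 3 MORAb003 arrays were above every other array, although replicate 3 was closer to the rest. WIPI1 reached the brightness filter (log2 6.60) only in the MORAb003 extract, with a mean of 7.50. Its means were 6.35 with 003, 6.41 without folate, 6.39 with 004 and 6.53 for folate alone. It was thus tested only because of the extract in which it was high, and its other levels were near the floor. The difference was 0.97 (SE 0.17, adjusted p = 0.00394) against folate, 1.10 (adjusted p = 0.000792) against 004 and 1.15 (adjusted p = 0.000232) against 003, or 1.96-fold, 2.15-fold and 2.21-fold. Against folate it was 1.14 within the first array date and 0.63 within the second. Its relative WIPI2, which recruits ATG16L1, showed extract means of 10.0 to 10.5 and was not called, and WDR45, the related WIPI4, was not called either.

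ATG4C is 1 of the cysteine proteases that trim LC3 and GABARAP proteins before conjugation. Its values were 8.18, 8.48 and 8.14 on the MORAb003 arrays, 7.07, 6.73 and 7.09 on the 003 arrays, 6.82, 7.18 and 7.39 on the no-folate arrays, 6.30, 7.34 and 7.36 on the 004 arrays and 7.79, 7.36 and 7.06 on the folate arrays. The MORAb003 arrays were again the highest, and the folate arrays were spread more widely than those of the other extracts except 004. ATG4C was higher in the MORAb003 extract by 1.30 (SE 0.26, adjusted p = 0.00155) than in 003 and by 1.27 (adjusted p = 0.00355) than in 004. The difference of 0.87 from the folate extract (0.75 within the first array date, 1.09 within the second) had an adjusted p of 0.0485, close to the threshold. It was not called under quantile normalization (0.76, adjusted p = 0.0696) or when any of 11 of the 15 arrays was left out singly, with adjusted p up to 0.196 without replicate 3 of the folate extract. With all 15 arrays, the other proteases ATG4B and ATG4D were not called in any comparison, with extract means of 9.66 to 10.1 and 7.67 to 8.42.

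**Figure D3:**
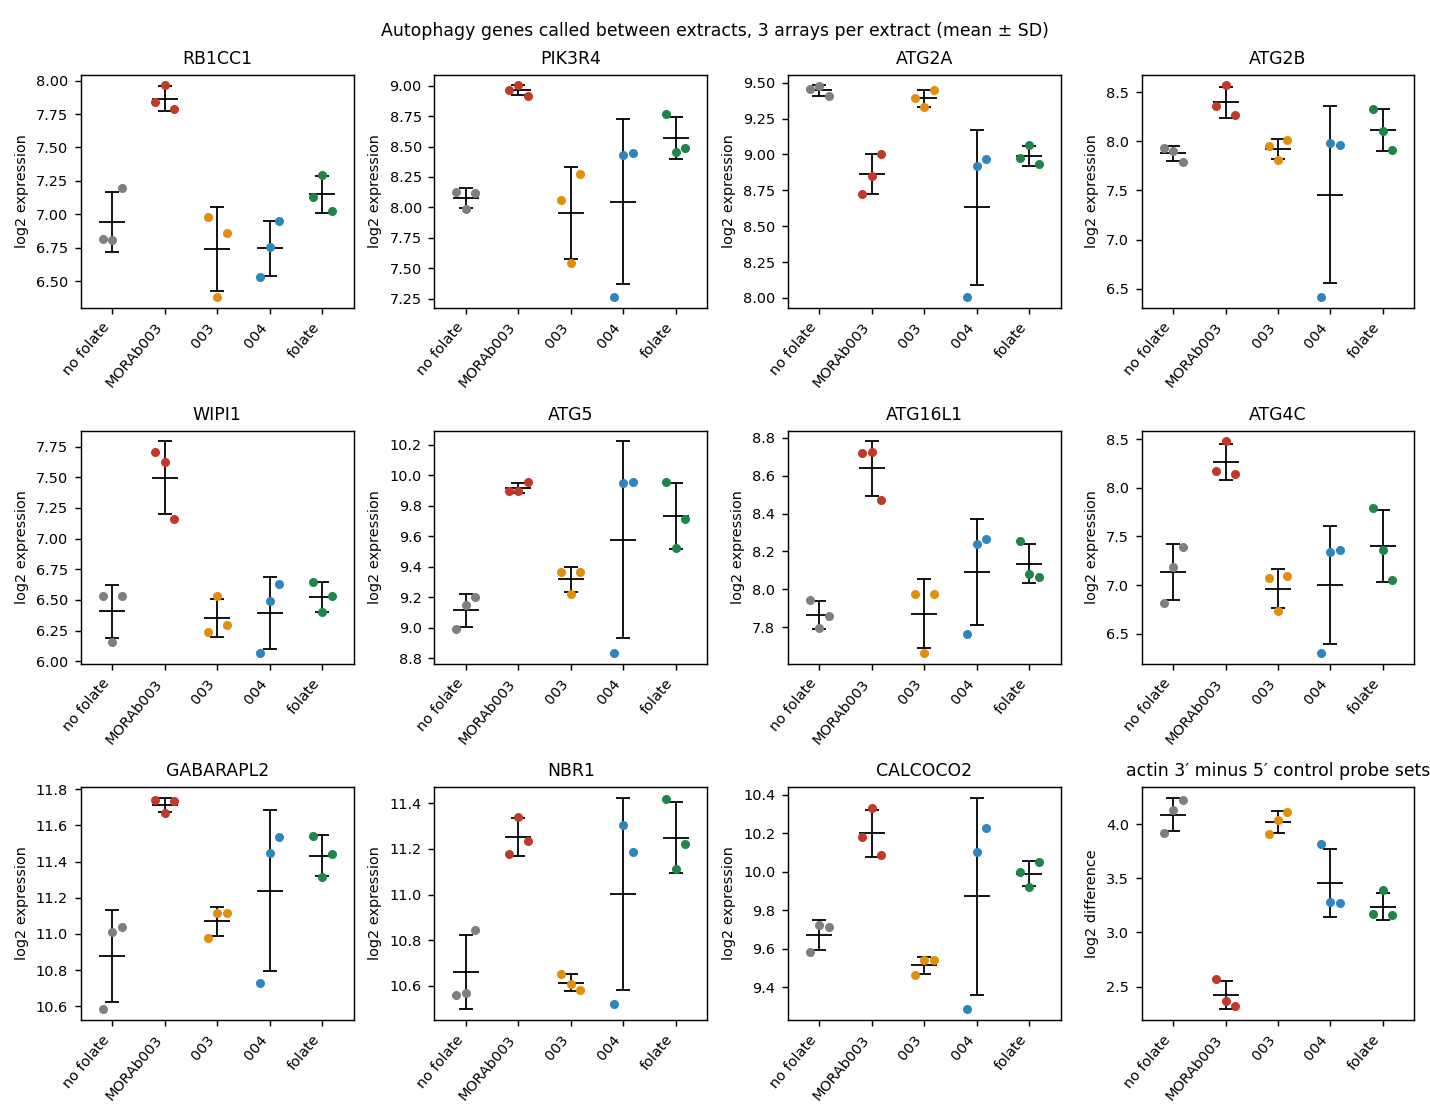
Log2 expression of the 11 autophagy genes called in at least 1 comparison, 1 panel per gene, with every array as a point and the mean ± SD (n = 3) of each extract; the last panel is the difference between the 3′ and 5′ actin control probe sets. The MORAb003 points stand highest for RB1CC1, WIPI1, ATG4C, PIK3R4 and ATG16L1, replicate 1 of the 004 extract stands low in most panels, and the actin gap is lowest for MORAb003 at 2.42.

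The 250 bases upstream of the annotated start are shown for WIPI1, ATG4C, PIK3R4 and ATG16L1, which with RB1CC1 had the 5 largest differences between the MORAb003 and 003 extracts, so that the promoters of members that were high together can be read side by side. They come from RefSeq (GRCh38.p14), whose promoter table matched 33 of the 36 genes, with 46 windows. Capitals mark matches, on either strand, to CCAAT (the box read by NF-Y), to CCGGAAG (the core read by ETS factors) and to GGGCGG (the GC box read by SP factors). WIPI1 lies at chr17:68457497-68457746 on the minus strand, ATG4C at chr1:62783882-62784131 on the plus strand, PIK3R4 at chr3:130746830-130747079 on the minus strand and ATG16L1 at chr2:233251423-233251672 on the plus strand.
WIPI1: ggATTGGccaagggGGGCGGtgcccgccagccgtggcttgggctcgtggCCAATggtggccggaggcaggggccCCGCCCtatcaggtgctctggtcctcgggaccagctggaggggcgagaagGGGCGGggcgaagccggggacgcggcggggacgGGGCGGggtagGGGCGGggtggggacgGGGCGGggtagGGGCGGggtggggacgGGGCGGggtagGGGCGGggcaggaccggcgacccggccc
ATG4C: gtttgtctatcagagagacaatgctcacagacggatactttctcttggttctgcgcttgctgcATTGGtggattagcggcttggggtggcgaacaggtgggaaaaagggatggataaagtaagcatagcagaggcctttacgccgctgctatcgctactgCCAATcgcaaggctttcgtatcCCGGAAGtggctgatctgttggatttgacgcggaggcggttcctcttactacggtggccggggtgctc
PIK3R4: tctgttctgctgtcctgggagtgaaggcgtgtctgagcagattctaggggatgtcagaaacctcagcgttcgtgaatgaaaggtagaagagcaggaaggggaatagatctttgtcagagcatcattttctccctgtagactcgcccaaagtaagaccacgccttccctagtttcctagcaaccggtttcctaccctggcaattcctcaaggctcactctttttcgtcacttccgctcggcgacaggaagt
ATG16L1: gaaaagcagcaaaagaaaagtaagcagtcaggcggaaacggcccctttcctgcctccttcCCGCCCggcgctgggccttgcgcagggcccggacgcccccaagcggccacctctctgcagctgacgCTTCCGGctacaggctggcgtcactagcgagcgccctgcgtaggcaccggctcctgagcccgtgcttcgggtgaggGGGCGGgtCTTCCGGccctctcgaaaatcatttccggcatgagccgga

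The 4 windows do not share a motif among those searched. WIPI1 has 9 GGGCGG matches and 2 CCAAT matches, ATG4C has 2 CCAAT matches and 1 CCGGAAG match, ATG16L1 has 2 of CCGGAAG and 2 of GGGCGG, and PIK3R4 has none of the 8 motifs searched. Beside these 3, the motifs were CACGTG (the E-box that TFEB and its relatives read), GTAAACA (read by FOXO factors), TGAGTCA (read by AP-1), TGACGTCA (read by CREB) and TGATGCAA (read by ATF4 with its partners), each sought on both strands. CACGTG was in 1 member window, that of ATG3, or 2.17%, against 6.34% of all windows. CCAAT was in 30.4% of member windows and 32.0% of all windows. GGGCGG was in 71.7% of member windows and 42.6% of all, and CCGGAAG in 19.6% and 8.52%. All windows were counted without regard to expression in these cells, while nearly all members passed the brightness filter. The sets are therefore not matched, and these shares do not show a trait of autophagy genes. A match is a string of letters in these windows and not a measured binding site.

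PIK3R4 is the regulatory subunit that anchors the lipid kinase PIK3C3. It read 8.96, 9.00 and 8.92 on the MORAb003 arrays, 8.06, 7.54 and 8.27 on the 003 arrays, 8.13, 7.98 and 8.12 on the no-folate arrays, 7.26, 8.43 and 8.45 on the 004 arrays and 8.77, 8.45 and 8.49 on the folate arrays. The MORAb003 arrays were highest, with the folate arrays and 2 of the 004 arrays next. PIK3R4 was higher in the MORAb003 extract by 1.01 (SE 0.26, adjusted p = 0.00684) than in 003 and by 0.91 (adjusted p = 0.0163) than in 004, and its difference of 0.39 from folate did not pass. The call against 004 ended without replicate 1 of the 004 extract, where the difference was 0.52, under the fold minimum, and without replicate 2 of the MORAb003 extract (0.89, adjusted p = 0.0531).

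The other members of the lipid kinase complex differed less. UVRAG, a BECN1 partner, was higher in the MORAb003 extract by 0.45 (adjusted p = 0.0148), 0.37 (adjusted p = 0.0156) and 0.40 (adjusted p = 0.00684) than in the folate, 004 and 003 extracts, each under 1.5-fold. PIK3C3 itself had means of 8.92 with MORAb003, 8.61 with 003, 8.52 without folate, 8.43 with 004 and 8.85 for folate alone, and passed in none. BECN1, the Beclin subunit, read 9.64, 9.62 and 9.89 on the MORAb003 arrays against 7.64, 9.45 and 9.47 on the 004 arrays, a difference of 0.86 that did not pass (adjusted p = 0.0654), with replicate 1 of the 004 extract far below the other 2 arrays. AMBRA1, which promotes ULK1 and BECN1 activity, was lower in the MORAb003 than in the 003 extract by less than 1.5-fold (-0.54, adjusted p = 0.0206).

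ATG2B, a lipid transfer protein of the growing membrane, read 8.35, 8.57 and 8.26 on the MORAb003 arrays, 7.95, 7.81 and 8.01 on the 003 arrays, 7.93, 7.90 and 7.79 on the no-folate arrays, 6.41, 7.98 and 7.97 on the 004 arrays and 8.33, 8.10 and 7.91 on the folate arrays. The MORAb003 and folate arrays overlapped, and 1 of the 004 arrays lay far below all others. The call against the 004 extract (0.94, SE 0.30, adjusted p = 0.0279) fell to 0.42 without replicate 1 of the 004 extract, under the fold minimum. It was also lost without replicate 1 (adjusted p = 0.0664), 2 (adjusted p = 0.0940) or 3 (adjusted p = 0.0512) of the MORAb003 extract. Without replicate 1 of the 004 extract, 3 of 35 members were called between the MORAb003 and 004 extracts, RB1CC1 (1.01), WIPI1 (0.94) and ATG4C (0.92), with 12.2% of all tested genes. ATG9A, the membrane protein of the vesicles that seed the cup, was not called in any comparison, with means of 9.36 to 9.77.

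The widest set of differences lay between the 2 cultures with antibodies named 003. Besides RB1CC1, WIPI1, ATG4C and PIK3R4, the genes ATG16L1, ATG5, GABARAPL2, NBR1 and CALCOCO2 were called higher in the MORAb003 than in the 003 extract. Without the fold minimum, 17 of 35 passed, 12 higher and 5 lower, where 44.6% of all tested genes passed. The 5 lower were AMBRA1 (-0.54), ATG2A (-0.53), GABARAPL1 (-0.57), TFEB (-0.43) and TP53INP2 (-0.30). The median difference was 0.13 over the 35 members and -0.09 over all tested genes.

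ATG16L1 and ATG5 belong to the complex that attaches LC3 to the membrane. ATG16L1 read 8.72, 8.72 and 8.47 on the MORAb003 arrays, 7.97, 7.66 and 7.98 on the 003 arrays, 7.94, 7.79 and 7.86 on the no-folate arrays, 7.77, 8.24 and 8.27 on the 004 arrays and 8.25, 8.08 and 8.07 on the folate arrays. It was higher in the MORAb003 extract by 0.77 (SE 0.14, adjusted p = 0.000854) than in 003, and by 0.55 (adjusted p = 0.0108) than in 004 and 0.50 (adjusted p = 0.0353) than in folate, the last 2 under 1.5-fold. ATG5 read 9.90, 9.90 and 9.96 on the MORAb003 arrays, 9.37, 9.22 and 9.36 on the 003 arrays, 8.99, 9.15 and 9.20 on the no-folate arrays, 8.83, 9.95 and 9.95 on the 004 arrays and 9.96, 9.53 and 9.72 on the folate arrays. Here the 003 and no-folate arrays and 1 of the 004 arrays were low, while the MORAb003, folate and 2 of the 004 arrays were together. ATG5 was higher by 0.60 (SE 0.23, adjusted p = 0.0449) in the MORAb003 than in the 003 extract, a call near both thresholds that was lost when any of 12 of the 15 arrays was left out singly, with adjusted p up to 0.127 without replicate 2 of the 003 extract. Of the other conjugation enzymes, ATG7 was flat, with means of 8.40 to 8.48, ATG3 had means of 10.1 to 10.6 and ATG12 of 9.09 to 9.63, and none of the 3 was called.

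GABARAPL2, an LC3 relative, read 11.74, 11.67 and 11.74 on the MORAb003 arrays, 10.98, 11.12 and 11.11 on the 003 arrays, 10.58, 11.01 and 11.04 on the no-folate arrays, 10.73, 11.45 and 11.54 on the 004 arrays and 11.54, 11.32 and 11.44 on the folate arrays. It was higher by 0.64 (SE 0.18, adjusted p = 0.0110) in the MORAb003 than in the 003 extract. MAP1LC3B, the LC3 gene most used as an autophagosome marker, read 9.96, 9.96 and 10.08 on the MORAb003 arrays, 9.38, 9.23 and 9.65 on the 003 arrays, 9.45, 9.43 and 9.54 on the no-folate arrays, 9.08, 10.09 and 10.12 on the 004 arrays and 10.09, 10.02 and 9.97 on the folate arrays. Its difference of 0.58 between the MORAb003 and 003 extracts passed the adjusted p (0.0360) and was just short of 1.5-fold. The family did not move as a block: GABARAPL1 read 7.03, 7.22 and 7.17 on the MORAb003 arrays and 7.80, 7.70 and 7.61 on the 003 arrays, the opposite order (-0.57, adjusted p = 0.0219), and GABARAP had extract means of 11.4 to 11.7.

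Among cargo receptors, NBR1 and CALCOCO2 (also NDP52) were called. NBR1 read 11.18, 11.34 and 11.24 on the MORAb003 arrays, 10.65, 10.61 and 10.58 on the 003 arrays, 10.56, 10.57 and 10.85 on the no-folate arrays, 10.52, 11.30 and 11.19 on the 004 arrays and 11.42, 11.11 and 11.22 on the folate arrays. CALCOCO2 read 10.18, 10.33 and 10.09 on the MORAb003 arrays, 9.46, 9.54 and 9.54 on the 003 arrays, 9.58, 9.72 and 9.71 on the no-folate arrays, 9.28, 10.10 and 10.23 on the 004 arrays and 10.00, 9.92 and 10.05 on the folate arrays. In both genes the 003 and no-folate arrays and replicate 1 of the 004 extract were low, and the MORAb003 arrays were level with or slightly above the folate arrays. NBR1 was higher by 0.64 (adjusted p = 0.00773) and CALCOCO2 by 0.68 (adjusted p = 0.00836) in the MORAb003 than in the 003 extract, and against folate they differed by 0.00 and 0.21. SQSTM1, the p62 receptor that is itself an autophagy substrate, had means of 10.1 in the MORAb003 extract and 10.5 in the 003 extract, and OPTN and TAX1BP1 were not called anywhere either.

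Of these 9 genes, ATG4C and GABARAPL2 have 1 probe set each, and the other 7 have further ones. The brightest RB1CC1 probe set is of a type that Affymetrix marks as open to cross-hybridisation, and the second, which is not, gave a larger difference: 1.31 against folate (adjusted p over all probe sets 0.00345) and 1.85 against 003. The second WIPI1 probe set gave 0.33 against folate, not called, and 0.68 against 003, called. A second ATG5 probe set was higher by 1.42 against folate (adjusted p = 0.000886), 1.80 against 004 and 1.97 against 003, where the brightest gave 0.19, 0.34 and 0.60. The further probe sets of PIK3R4 and ATG16L1 were too dim to test, with differences from the 003 extract of -0.17 to -0.02 and -0.07. Against 003, 2 further probe sets of NBR1 (as low as -0.0950) and 1 of CALCOCO2 (-0.0163) had the opposite sign to the brightest. Of 94 member probe sets, 71 were tested and 9, 15 and 21 were called in the MORAb003 extract against folate, 004 and 003, all higher, where 7.81%, 20.1% and 24.9% of all tested probe sets were called.

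**Figure D4:**
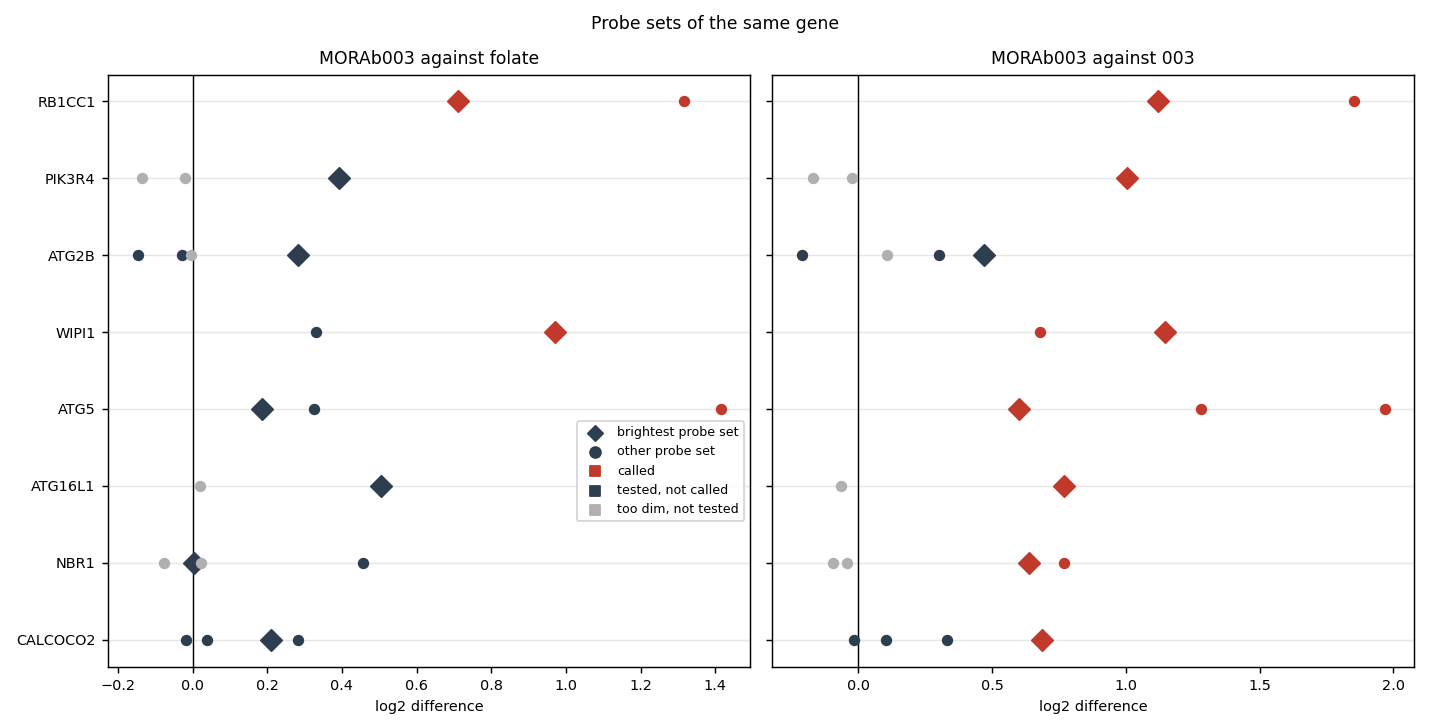
Log2 difference of every probe set of 8 autophagy genes, MORAb003 minus folate (left) and MORAb003 minus 003 (right); diamonds are the brightest probe set of a gene, circles the others, red called, dark tested and not called, grey too dim to test. The RB1CC1, WIPI1 and ATG5 probe sets all lie right of 0 in both panels, up to 1.97 for ATG5, while the dim PIK3R4 and ATG16L1 probe sets lie near 0. In the right panel NBR1 and CALCOCO2 also have probe sets left of 0, as low as -0.0950 for NBR1.

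The 003 extract was set against the same 2 controls. No member was called between the 003 and folate extracts, where 2.02% of all tested genes were called. The nearest were VMP1, a membrane protein of autophagosome formation, at -0.42 (adjusted p = 0.0565) and NBR1 at -0.64 (adjusted p = 0.0576). The median difference was -0.17 over the 35 members and 0.03 over all tested genes. Without replicate 1 of the 004 extract, which widens the spread shared by all groups, MAP1LC3B (-0.61, adjusted p = 0.000123), NBR1 (-0.64, adjusted p = 0.000102) and PIK3R4 (-0.61, adjusted p = 0.00235) were called lower in the 003 than in the folate extract, with 7.18% of all tested genes. With replicate 2 or replicate 3 of the 004 extract left out instead, NBR1 was the 1 member called (-0.64, adjusted p = 0.0378 and 0.0455), with 2.67% and 2.97% of all tested genes.

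Between the 003 and 004 extracts, 1 of 35 was called, with 3.47% of all tested genes. It was ATG2A, the second ATG2 lipid transfer protein, at 9.39, 9.33 and 9.45 on the 003 arrays, 8.73, 8.85 and 9.00 on the MORAb003 arrays, 9.46, 9.48 and 9.41 on the no-folate arrays, 8.01, 8.92 and 8.97 on the 004 arrays and 8.97, 9.07 and 8.93 on the folate arrays. The 003 and no-folate arrays were high together and apart from all others. ATG2A was 0.76 higher in the 003 than in the 004 extract (SE 0.19, adjusted p = 0.0336), a value that drops to 0.45 and under the fold minimum without replicate 1 of the 004 extract. The call was also lost when any of 10 other arrays was left out singly, with adjusted p up to 0.116. Without replicate 1 of the 004 extract, 4 members were called lower in the 003 than in the 004 extract, ATG5 (-0.63), CALCOCO2 (-0.65), MAP1LC3B (-0.68) and NBR1 (-0.63), with 6.24% of all tested genes. Without replicate 2 of the 004 extract, with its low replicate 1 kept, 4 members other than these were called, all higher in the 003 extract: AMBRA1 (0.63), ATG2A (0.90), GABARAPL1 (0.59) and OPTN (0.75), with 7.04% of all tested genes. Without replicate 3 the 4 called higher were AMBRA1 (0.68), ATG2A (0.93), ATG4D (0.94) and OPTN (0.73), with 8.18% of all tested genes. The direction of the calls in this comparison thus turned on whether replicate 1 of the 004 extract was included.

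Without folate for 7 days, no autophagy gene was called against the folate extract, where 2.71% of all tested genes were called. NBR1 was at -0.59 (adjusted p = 0.0654), GABARAPL2 at -0.56 (adjusted p = 0.104), ATG5 at -0.62 (adjusted p = 0.149) and MAP1LC3B at -0.55 (adjusted p = 0.164), with ATG2A at 0.46 (adjusted p = 0.206). ULK1 and SQSTM1 had means of 7.65 and 10.4 in the no-folate extract and 7.60 and 10.4 in the folate extract. The arrays of the 2 extracts did not overlap for 22 of 35 members, where 42.3% of all tested genes did not. The median difference was -0.12 over the 35 members and 0.01 over all tested genes. Without replicate 1 of the 004 extract, ATG5 (-0.62, adjusted p = 0.000134) and NBR1 (-0.59, adjusted p = 0.000166) were called lower in the no-folate extract, with 6.42% of all tested genes, and without replicate 2 of it NBR1 alone was called (adjusted p = 0.0408), with 3.29% of all tested genes.

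The no-folate and 003 extracts, in which NBR1, ATG5, MAP1LC3B, GABARAPL2 and CALCOCO2 were low and ATG2A was high, are also the 2 with the widest actin gap, at 4.09 and 4.02, and the widest GAPDH gap, at 2.37 ± 0.12 and 2.49 ± 0.03, against 1.21 ± 0.14 in the MORAb003, 2.05 ± 0.27 in the 004 and 1.97 ± 0.05 in the folate extract (log2, SD, n = 3). The part of this in the differences was not tested.

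Of the regulators, TFEB, the transcription factor of lysosomal and autophagy genes, read 7.41, 7.46 and 7.58 on the MORAb003 arrays, 7.89, 8.09 and 7.77 on the 003 arrays, 7.91, 7.83 and 7.64 on the no-folate arrays, 8.34, 7.78 and 7.83 on the 004 arrays and 7.70, 7.83 and 7.71 on the folate arrays. The MORAb003 arrays were lowest, and TFEB was lower there by less than 1.5-fold than in 004 (-0.50, adjusted p = 0.0175) and 003 (-0.43, adjusted p = 0.0240). Replicate 1 of the 004 extract was the highest TFEB array, and without it the difference from 004 was -0.32 (adjusted p = 0.0177). FYCO1, an adaptor that moves autophagosomes along microtubules, had means of 9.20 to 9.69 and was not called. TP53INP2, which carries LC3 out of the nucleus, had means of 7.88 in the MORAb003 extract and 8.07 to 8.19 in the others.

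Between the control antibody 004 and the folate extract, 0 of 35 genes were called by limma, as were 0% of all tested genes. The differences of the 004 extract from folate were negative for 31 of 35 members and positive for 4, where 32.6% of all tested genes were positive. The members' median was -0.24 (-0.13 over all tested genes), and 0.04 (0.01 over all tested genes) without replicate 1 of the 004 extract.

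To set both antibody cultures against both controls at the level of cultures, the means of the 5 extracts were fitted as 3 groups, with the 003 and MORAb003 cultures together and the 004 and folate cultures together. That fit called 0% of all genes by limma at an adjusted p under 0.05, none of the 35 members had an unadjusted p under 0.05, and 0.327% of all genes did. WIPI1 averaged 6.92 in the antibody cultures and 6.46 in the control cultures, a difference of 0.46 with a 95% interval of -0.44 to 1.37. RB1CC1 differed by 0.35 (-0.57 to 1.28) and ATG4C by 0.41 (-0.61 to 1.44), intervals that include 0 and also more than 2-fold increases. The fit takes 003 and MORAb003 as 1 treatment, which the labels do not state, and the 2 antibody cultures differed from each other in the 9 genes above.

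The genes that control autophagy from outside the machinery were followed in a list of 85 further pathway genes, 83 with a single-symbol probe set. Of 27 tested genes of mTORC1 and AMPK control, 5 were called between the MORAb003 and folate extracts, 4 higher and 1 lower, where 6.58% of all tested genes were called. Against the 004 extract 11 were called, 10 higher and 1 lower (19.9% of all), and against the 003 extract 11, with 8 higher and 3 lower (25.4% of all). Without replicate 1 of the 004 extract the numbers were 8 (7 higher, 1 lower, 10.2% of all), 8 (7 higher, 1 lower, 12.2% of all) and 11 (8 higher, 3 lower, 26.3% of all).

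SESN3, a sestrin that restrains mTORC1 and is induced by FOXO factors, read 8.16, 8.45 and 8.28 on the MORAb003 arrays, 5.81, 6.07 and 5.88 on the 003 arrays, 5.98, 6.38 and 6.45 on the no-folate arrays, 5.40, 6.73 and 6.62 on the 004 arrays and 7.14, 6.85 and 6.52 on the folate arrays. The MORAb003 arrays stood more than 1 log2 unit above all others, by 1.46 (adjusted p = 0.00543) on average against folate and by 2.38 (adjusted p = 3.68e-05) against 003. SESN3 means of 5.92 with 003, 6.27 without folate and 6.25 with 004 were under the brightness filter (log2 6.60). The lower side of the difference from 003 was thus near the floor, and the folate mean was 6.84. FLCN, a regulator of Rag GTPases and TFEB family factors, was higher by 1.12 (adjusted p = 0.0127) against folate, DEPTOR, an mTOR inhibitor, by 0.91 (adjusted p = 0.00483), and PRKAB2, an AMPK subunit, by 0.75 (adjusted p = 0.0418). AKT1S1, the PRAS40 subunit that inhibits mTORC1, was lower (-0.74, adjusted p = 0.0229). DDIT4, the stress-induced inhibitor REDD1, was not called between the MORAb003 and folate extracts and was lower in the 003 extract than in folate (-0.97, adjusted p = 0.00795) and 004 (-0.73, adjusted p = 0.0139).

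In the other lists the numbers called against the folate extract were small, where 6.58% of all tested genes were called. FOXO1, a transcription factor of autophagy genes, was 1 of 7 (0.76, adjusted p = 0.0456). NRBF2, a subunit of the lipid kinase complex, was 1 of 15 core partners (0.89, adjusted p = 0.0146). CCPG1, a receptor for autophagy of the endoplasmic reticulum, was 1 of 16 genes of selective receptors and mitophagy (0.77, adjusted p = 0.0363). None of 15 genes of fusion with the lysosome was called with all 15 arrays, but LAMP2 was when 1 array was left out, as given below.

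Against the 004 extract, where 19.9% of all tested genes were called, FOXO1 (1.23) was again 1 of 7. Called higher were 3 of 15 core partners (NRBF2 at 1.32, TMEM41B at 0.82 and ATG14 at 0.66). So were 2 of 16 genes of selective receptors and mitophagy (CCPG1 at 1.22 and BCL2L13 at 0.96). Of 15 fusion genes, 1 was called higher, the lysosomal membrane protein LAMP2 (0.81, adjusted p = 0.0141). Without replicate 1 of the 004 extract FOXO1 (0.83), NRBF2 (1.07) and CCPG1 (0.89) were still called, and LAMP2 (0.45), TMEM41B (0.51), ATG14 (0.25) and BCL2L13 (0.54) were not, with 12.2% of all tested genes called.

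Against the 003 extract, where 25.4% of all tested genes were called, genes of these lists differed in both directions. FOXO1 was 1 of 7 (0.98). Of 15 core partners, NRBF2 (1.29), TMEM41B (0.80) and SH3GLB1 (0.64) were higher and ATG101, a subunit of the ULK complex, was lower (-0.78, adjusted p = 0.00177). Of 15 fusion genes, LAMP2 was higher (1.42, adjusted p = 0.000274) and VPS16, a subunit of vacuolar tethering complexes, was lower (-0.80, adjusted p = 0.00461). The difference was negative for 10 of the 15 and positive for 5, where 42.5% of all tested genes were positive. The median was -0.20 over the 15 beside -0.09 over all tested genes. Of the 16 genes of selective receptors and mitophagy, 8 were called, 5 higher (CCPG1, FUNDC1, BNIP3L, BCL2L13 and TBK1) and 3 lower (SEC62, PINK1 and TEX264).

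Of the 16 genes of selective receptors and mitophagy, BNIP3 and TBK1 were the 2 called in the no-folate extract against folate, where 2.71% of all tested genes were called. BNIP3L, another mitophagy receptor, was called lower as well without replicate 1 of the 004 extract (-0.77), making 3 of 16 with 6.42% of all tested genes. BNIP3, a mitophagy receptor that hypoxia induces, read 10.92, 10.82 and 11.11 on the no-folate arrays and 11.85, 11.71 and 11.85 on the folate arrays, without overlap (-0.85, adjusted p = 0.0108). TBK1, the kinase that phosphorylates cargo receptors, read 10.00, 10.14 and 10.09 on the no-folate arrays and 10.95, 10.80 and 10.97 on the folate arrays (-0.83, adjusted p = 0.0380). BNIP3 was also lower in the 003 extract, by 1.07 on the log2 scale against folate (-1.07, adjusted p = 0.00795).

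**Figure D5:**
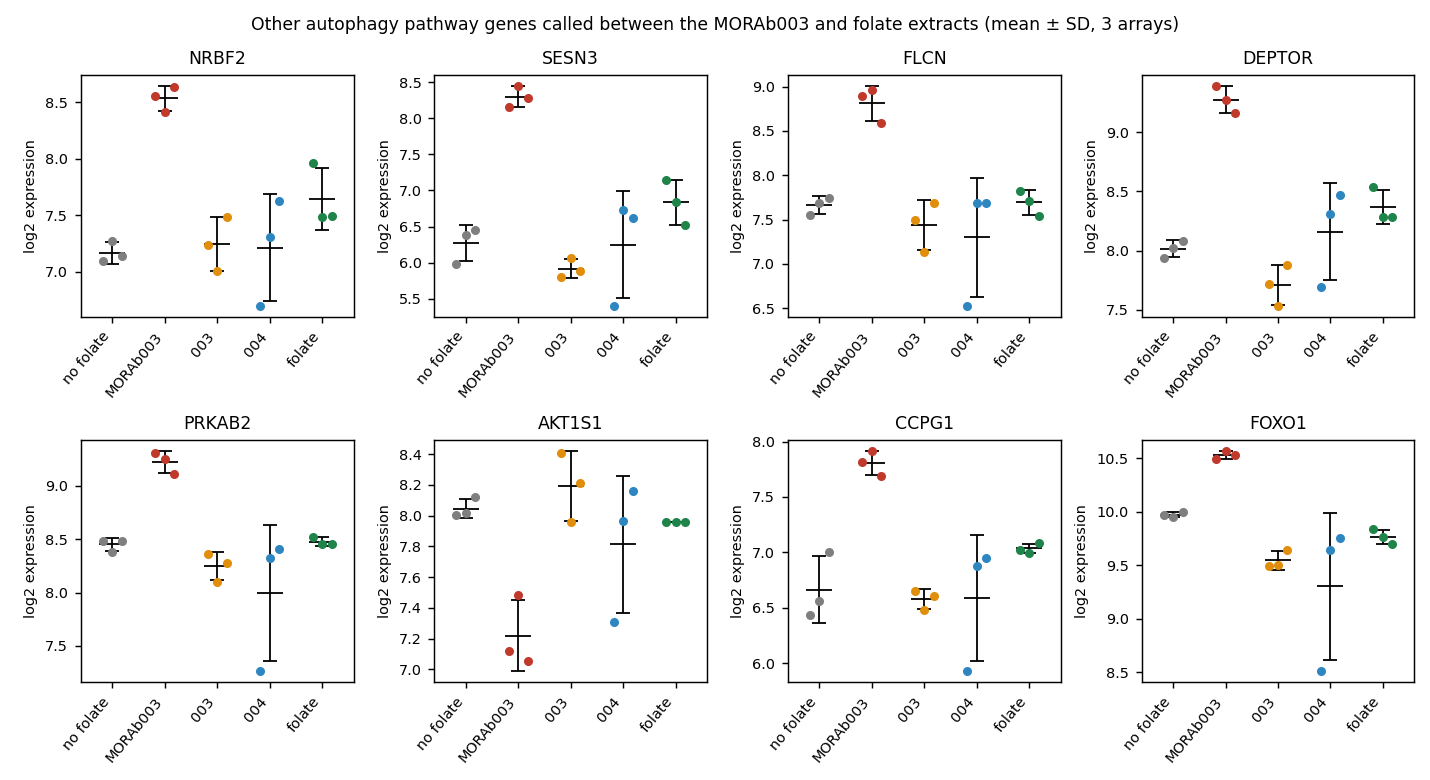
Log2 expression of 8 further autophagy pathway genes called between the MORAb003 and folate extracts, 1 panel per gene, with every array as a point and the mean ± SD (n = 3) of each extract. The MORAb003 points lie above all others in 7 panels and below all but replicate 1 of the 004 extract in the AKT1S1 panel, where they average 7.22 against 7.96 on the folate arrays.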

How the data were processed

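Total RNA was extracted with Trizol and hybridised as biotin-labelled cRNA, per the labels' protocols. The authors deposited 1 table of log2 expression values, 54675 probe sets by 15 arrays. How they were summarised and normalised is not given in the sources used here. No further scaling was applied to the deposited log2 values. Probe sets were named from the platform annotation, where 41091 carried 1 symbol, 1801 several and 11721 none, with symbols updated through the Entrez identifier for 41037 of them. Per gene the brightest probe set over the 15 arrays was kept, and genes entered the tests where at least 1 extract mean was at or above the median over all probe sets.

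The means of the 5 extracts were fitted to all 15 arrays with limma 3.58.1 (lmFit, eBayes) in R 4.3.3, with 10 residual degrees of freedom and Benjamini-Hochberg adjustment over 14369 genes within a comparison. A difference was called at an adjusted p under 0.05 and at least 1.5-fold. The culture-level fit used the 5 extract means, without a fold minimum, and had 2 residual degrees of freedom. Its errors were moderated by eBayes, which borrows variance from the other genes, and its 95% intervals use the resulting larger degrees of freedom. The scripts were tested on simulated data.

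By their descriptions, replicates 1 and 2 of every extract share one array date and replicate 3 has another; these are array dates, not extraction batches. The alternatives were quantile normalization, no filter, a stricter filter, the mean of all probe sets, each other probe set, no fold minimum, the array date or the replicate number as a block, the first array date alone, only the 6 arrays compared, and leaving out each array. Using the second date alone was chosen after seeing the data and gives a value with no test.

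The autophagy genes, the further gene lists and the tests were chosen with earlier results of these data known. Full values are given for the members called in at least 1 comparison, and up to 4 called genes per further list and comparison are named; others were chosen after their values were seen. Precision is limited by 3 arrays per extract and by 1 culture per condition.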

Additional observations from a re-analysis of the deposited data

How the results depend on the processing

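Between the 003 and 004 extracts, the 1 member called (ATG2A) became 0 with the first array date alone or only the 6 arrays compared. Between the no-folate and folate extracts, where none was called, the mean of all probe sets gave 1 and only the 6 arrays compared gave 2. Between the 003 and folate extracts, again from none, the stricter filter and the mean of all probe sets gave 1 each and the 6 arrays alone gave 3. Between the MORAb003 and folate extracts the 3 called became 1 with the stricter filter, 5 without the fold minimum and 0 with the first date alone. Between the MORAb003 and 004 extracts the 5 called became 3 with the stricter filter, 8 without the fold minimum and 0 with only the 6 arrays. Between the MORAb003 and 003 extracts the 9 called became 17 without the fold minimum. Leaving out each array in turn gave 0 to 2 members (no folate against folate), 0 to 3 (003 against folate), 0 to 4 (003 against 004; the 4 were lower in the 003 extract without replicate 1 of the 004 extract, and higher without its replicate 2 or 3), 1 to 3 (MORAb003 against folate), 3 to 12 (MORAb003 against 004, the lowest without replicate 1 and the highest without replicate 3 of the 004 extract) and 8 to 11 (MORAb003 against 003). For MORAb003 against folate the 1 was reached without replicate 3 of the folate extract or replicate 1 or 2 of the MORAb003 extract, and for MORAb003 against 004 the number was also 11 without replicate 2 of the 004 extract and 3 without replicate 2 of the MORAb003 extract. The 004 against folate and the culture-level counts stayed at 0 in every leave-out. Where fewer arrays, genes or probe sets entered by construction, that is the setting's own change, and beyond it the cause was not tested.

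Directions of named genes reversed only through other probe sets. These were ATG2B (-0.18 and -0.0322) and PIK3R4 (-0.12 and -0.10) against 004, and PIK3R4 (-0.0229 and -0.17), ATG16L1 (-0.0662), CALCOCO2 (-0.0163) and NBR1 (-0.0426 and -0.0950) in the MORAb003 extract against 003. Most of these probe sets were too dim to be tested. Under quantile normalization ATG5, GABARAPL2, NBR1 and CALCOCO2 fell below 1.5-fold in the MORAb003 against the 003 extract (0.40, 0.48, 0.48 and 0.49), all with adjusted p under 0.05.

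With the replicate number as a block, the members called were 0, 0, 1, 2, 5, 8 and 0 in the no folate against folate, 003 against folate, 003 against 004, MORAb003 against folate, MORAb003 against 004, MORAb003 against 003 and 004 against folate comparisons, and 0 at the culture level. Same-numbered arrays did not deviate together at the median (30 pairs, median r -0.07, range -0.55 to 0.52, 8 over 0.1). For 60 pairs of different numbers the median was 0.02 and the range -0.51 to 0.56, with 22 over 0.1. With so wide a spread this check cannot exclude that some arrays are paired, and the main fit did not pair them.

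ATG10 and 23 of the 94 member probe sets were too dim to test. One culture per condition limits every statement to these extracts.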
